A study of Mus musculus with 5 samples.

Results

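The genes described here are 9 transcription factor genes of the oligodendrocyte lineage and of the SOX family: Olig1, Olig2, Nkx2-2, Sox10, Sox8, Sox9, Sox4, Sox11 and Sox2. They were chosen by symbol from the 29495 genes of each count table. All 9 were present, and all 9 passed the filter on low counts. They were read in mouse glioma cells of genotype p53-/-;NF1-/-;tdTomato+/-, from tumor mice whose mixed background included CD-1 and C57BL/6, and the library titles all carry the same code. These had been grown on olfactory bulb (OB) neurons from C57BL/6 pups and were sorted on tdTomato, a red fluorescent protein. The controls were 2 libraries of co-cultured cells with no IGF-1 added (replicates 1 and 2). The treated group was 3 libraries of the co-culture kept overnight in 20 ng/mL IGF-1, the insulin-like growth factor (replicates 3, 4 and 5). Cells of both groups carried the same deletions and were kept under the same culture conditions, whose plating medium held insulin and whose later media held serum and the B27 supplement. What drove the deletions, and how many tumors or cultures stand behind the libraries, the labels do not say. P-values here therefore reflect the spread among 5 libraries alone, and that spread may be technical. Trp53 and Nf1 averaged 84.7 and 130 CPM, but counts over a whole gene do not check the deletion of a part.

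OLIG1 and OLIG2 are basic helix-loop-helix factors. OLIG2 specifies oligodendrocyte progenitors, is widely found in diffuse gliomas and keeps progenitor-like glioma cells dividing. SOX proteins bind DNA through an HMG box and fall into groups that often act in place of one another. SOX8, SOX9 and SOX10 form group E, SOX4 and SOX11 group C, and SOX2 belongs to group B. In the oligodendrocyte lineage SOX9 acts early and is lost as progenitors mature, while SOX10 stays on through myelination. SOX2 marks neural stem cells, and the group C factors mark immature, often neuronal, precursors. NKX2-2 is a homeodomain factor that helps progenitors differentiate.

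Levels are given in CPM, the counts scaled to a common library size with TMM factors. Libraries held 16944315 to 20144181 counts. The label of the cells was checked against markers: the summed level of 8 oligodendrocyte progenitor genes was 2329 to 2396 CPM in the controls and 2386 to 2811 with IGF-1, and 7 of the 8 averaged at least 1 CPM. Maturing oligodendrocyte genes summed to 1283 to 1447 CPM over all libraries, although the myelin genes Mag, Mog and Mobp had at most 7 counts in any library. Of 13 olfactory bulb neuron markers that were read, 4 averaged at least 1 CPM, and their sum was 12.1 CPM in both controls and 12.3 to 19.8 with IGF-1. The neuronal nuclear gene Rbfox3 had 0 or 1 count per library. Olfactory ensheathing glia also express Sox10. Of their markers 6 genes were read, which summed to 7.91 to 11.6 CPM, and 3 of the 6 averaged at least 1 CPM. These were Ngfr at 5.79 CPM, Foxd3 at 2.64 and Frzb at 1.34, while Npy had 0 or 1 count. Astrocyte genes summed to 320 to 357 CPM, and 6 of the 8 averaged at least 1 CPM. Slc1a3, Slc1a2, Aldoc and S100b averaged 117, 80.6, 70.7 and 62.3 CPM. Gfap and Gja1 averaged 8.47 and 2.75 CPM, and Aldh1l1 and Aqp4 0.933 and 0.601. Microglial, endothelial and fibroblast genes each summed to at most 17.4 CPM. IGF-1 replicate 5 stood apart. Its counts differed from those of replicates 3 and 4 by 13.4 and 13.5 chi-square units per degree of freedom, against 2.33 between replicates 3 and 4 and 2.29 between the controls. Each result below is therefore given with and without it where it matters.

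The 9 genes covered a wide range of levels. Per length, as CPM per kilobase of annotated exons (RPKM), Olig1 was highest at a mean of 324 over the 5 libraries (314 to 332). Sox10 followed at 277 (256 to 310), then Olig2 at 106 (97.2 to 117) and Sox2 at 88.2 (82.6 to 92.3). Sox4 came next at 62.9 RPKM (50.5 to 73.9), then Sox11 at 28.7 (27.6 to 30.0), Sox8 at 15.8 (13.2 to 18.9) and Nkx2-2 at 9.25 (8.79 to 10.1). Sox9 was last at 0.371 RPKM (0.214 to 0.604). With these exon lengths no neighbours in the order overlapped over the 5 libraries. With the length of the principal transcript, chosen after seeing the data, the order of the means was the same, but Sox10 (281 to 340) overlapped Olig1 (314 to 332) and was the higher of the pair in IGF-1 replicate 5. On the scale of CPM, which favours long transcripts, Sox10 led Olig1 and Sox4 ranked 3. Within group E the cells thus held much Sox10, some Sox8 and hardly any Sox9.

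**Figure D1:**
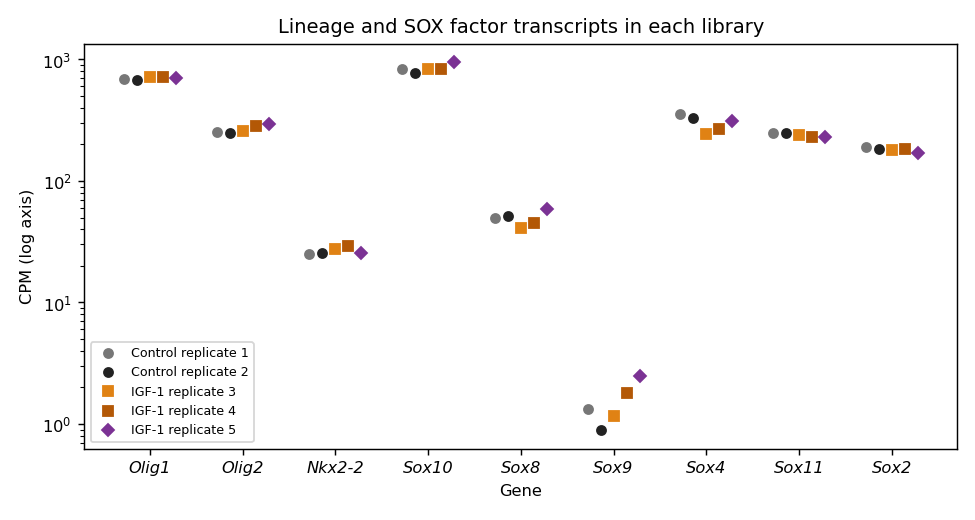
CPM (log axis) of the 9 genes in each library; circles are the 2 controls, squares IGF-1 replicates 3 and 4, diamonds IGF-1 replicate 5. Sox10 lay between 781 and 946 CPM and Sox9 between 0.885 and 2.50, while the 5 values of Sox4 (242 to 354 CPM) spanned all those of Olig2 (246 to 296).

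The comparison asks whether these lineage and SOX transcripts differ after IGF-1. With all 5 libraries none of the 9 passed the quasi-likelihood test of edgeR at an adjusted p under 0.05 (Benjamini-Hochberg over 15919 genes): 0 were called higher and 0 lower. DESeq2 and limma-voom also called 0 and 0. Over all genes tested, 1.02% were called (0.685% higher and 0.339% lower), so with 9 genes a count of 0 is near that background. At an unadjusted p under 0.05, Olig2 was higher and Sox4 lower, 1 of the 9 each, where 7.1% of all genes were higher and 5.57% lower. In Olig1 and Olig2 all 3 IGF-1 libraries lay above both controls, as in 16.2% of all genes, and in Sox4 and Sox11 all 3 lay below, as in 16.9%. The median log2 fold change of the 9 was 0.06, beside -0.01 over all genes. Without IGF-1 replicate 5, 0 were higher and 2 lower, Sox4 and Sox8, where 5.49% and 3.65% of 15573 genes were called higher and lower. DESeq2 without that library called 0 higher and 1 lower, Sox4. For Olig1, Nkx2-2, Sox10, Sox9, Sox11 and Sox2 the adjusted p lay between 0.163 and 0.971 over 11 alternatives, of which 2 gave none for Sox9. In these bulk samples a change in the share of a cell type and a change in RNA per cell cannot be told apart.

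Olig1 was at 689 and 679 CPM in the controls and at 719, 711 and 710 in IGF-1 replicates 3, 4 and 5. The groups did not overlap, yet the whole range over the 5 libraries was only 0.08 on the log2 scale. The log2 fold change was 0.06 (SE 0.06, 95% interval -0.07 to 0.19, adjusted p = 0.707 by edgeR). Olig1 was the steadiest of the 9 genes, and leaving out replicate 5 left it at 0.06. Annotated exons of an antisense gene overlap 7.26% of the exon bases of Olig1, and that gene had 0 to 3 counts per library.

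Olig2 was at 253 and 246 CPM in the controls and at 260, 282 and 296 in replicates 3, 4 and 5. Its 3 IGF-1 values were spread more widely than the controls, with the lowest just above them and the highest in replicate 5. The mean went from 250 ± 5.13 (SD, n = 2) to 279 ± 17.9 CPM (SD, n = 3). The difference of 0.16 on the log2 scale (SE 0.07, 95% interval 0.006 to 0.32) had an adjusted p of 0.377 by edgeR. Without replicate 5 it was 0.12 (SE 0.04, adjusted p = 0.0522 by edgeR), just short of the threshold, and over 11 alternatives the adjusted p lay between 0.0522 and 0.949. In each of these alternatives the difference was above 0.

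Nkx2-2, the homeodomain gene, was at 25.3 and 25.7 CPM in the controls and at 27.6, 29.0 and 25.4 with IGF-1. Replicates 3 and 4 lay above both controls and replicate 5 between them. The fitted log2 difference was 0.10 (SE 0.09, adjusted p = 0.699 by edgeR), or 0.15 without replicate 5 (adjusted p = 0.349). Its antisense neighbour Nkx2-2os, whose annotated exons overlap 9.67% of those of Nkx2-2, had a level of 4.85 to 6.96 CPM and a log2 fold change of -0.28 (adjusted p = 0.566 by edgeR). The labels do not say whether the counting used strand, so reads from the shared bases of such a pair cannot be told apart.

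Of the group E genes, Sox10, Sox8 and Sox9 were each highest in IGF-1 replicate 5. Sox10 was at 832 and 781 CPM in the controls and at 836, 828 and 946 in IGF-1 replicates 3, 4 and 5. Replicates 3 and 4 were within 5 CPM of control replicate 1, and the high value came from replicate 5 alone. The mean was 806 ± 36.3 CPM (SD, n = 2) and 870 ± 65.8 (SD, n = 3), with a log2 fold change of 0.11 (SE 0.08, 95% interval -0.06 to 0.28, adjusted p = 0.589 by edgeR). Without replicate 5 it was 0.05 (SE 0.03, adjusted p = 0.48).

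Sox8, a close relative of Sox10, was at 49.5 and 51.5 CPM in the controls and at 41.1, 44.8 and 58.9 with IGF-1. Replicates 3 and 4 lay below both controls and replicate 5 above them, so the IGF-1 values bracketed the controls. With all libraries the log2 fold change was -0.06 (SE 0.13, adjusted p = 0.878 by edgeR). Without replicate 5 it was -0.23 (SE 0.07), called by edgeR (adjusted p = 0.0267) and not by DESeq2 (adjusted p = 0.312). Without replicate 3 it turned to 0.043 (adjusted p = 0.914), and over the 11 alternatives the adjusted p ran from 0.0267 to 0.989. The direction for Sox8 therefore depends on which IGF-1 libraries are used. Annotated exons of an antisense transcript overlap 10.6% of the exon bases of Sox8. Under its symbol that transcript was absent from the 29495 genes, through 0 counts or because it was not counted, so it could not be analysed here.

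Sox9 had only 23 and 15 counts in controls, and 21, 34 and 51 under IGF-1. These are 1.33 and 0.885 CPM against 1.16, 1.80 and 2.50, and the groups overlap. The log2 fold change of 0.72 had an SE of 0.40 and a 95% interval from -0.17 to 1.61 (adjusted p = 0.492 by edgeR). With few counts and a wide spread among the IGF-1 libraries, a change could not be told from none. Without replicate 5 the log2 fold change was 0.42 (adjusted p = 0.637 by edgeR).

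Replicate 5 was set beside the mean of replicates 3 and 4 for each gene, over the 9779 genes of at least 10 CPM. Its log2 difference was 0.46 for Sox8, 0.28 for Sox4, 0.18 for Sox10 and 0.13 for Olig2, which lay at percentiles 98.2, 92.7, 85.6 and 77.8 of all these genes. Olig1 (-0.01), Sox11 (-0.02), Sox2 (-0.10) and Nkx2-2 (-0.15) were between percentiles 23.4 and 51.3. Beside this, the summed progenitor markers were highest in replicate 5 (2811 CPM), as was the sum of the 13 neuronal markers (19.8 CPM). In the neuronal sum Syt1 alone was at 11.4 CPM in replicate 5 and at 4.67 to 5.56 in the other libraries. Each other neuronal marker was at most 2.35 CPM in any library. Of the 8 progenitor markers, Pdgfra, Cspg4, Lhfpl3 and C1ql1 were highest in replicate 5, and Ptprz1 barely so (896 CPM against 893 in replicate 3). Pcdh15 was lowest there, and Gpr17 and Neu4 lay within the range of the other 4 libraries. The share of all genes that were highest in replicate 5 was not counted, so this is only a description. Cspg4, the NG2 proteoglycan gene, was at 760 CPM in replicate 5 and at 474 to 572 in the others, and Pcdh15 at 126 against 127 to 136. The part of these differences in the results was not tested.

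**Figure D2:**
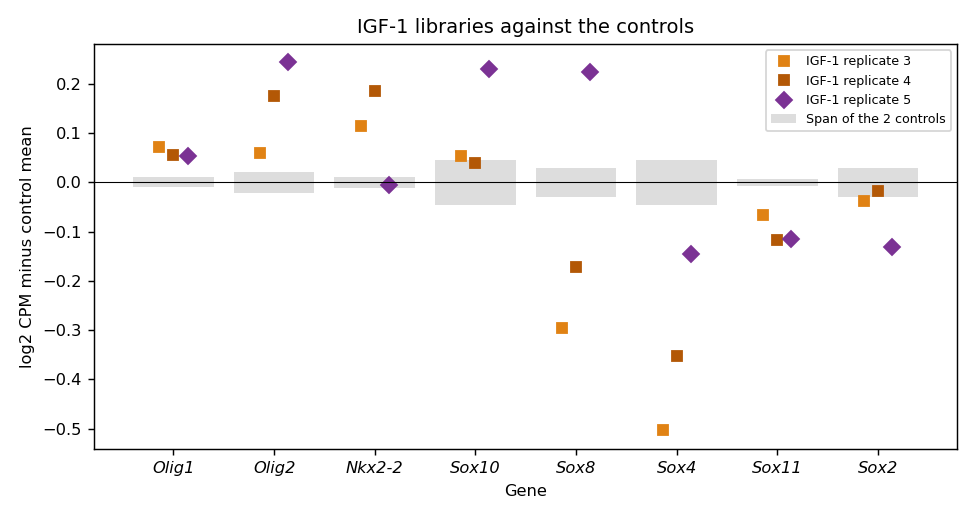
log2 CPM of each IGF-1 library minus the mean of the log2 values of the 2 controls, for 8 of the genes (Sox9, at 15 to 51 counts, is left out); grey boxes span the 2 controls. In Sox4 all 3 points lie below 0, at -0.50, -0.35 and -0.15, and in Sox8 replicate 5 (0.22) is on the other side of 0 from replicates 3 (-0.30) and 4 (-0.17).

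Among the group C genes Sox4 had the largest difference of the well-measured genes. It was at 354 and 333 CPM in the controls and at 242, 269 and 310 in IGF-1 replicates 3, 4 and 5. All 3 IGF-1 values were below both controls, replicate 5 least so. The mean was 343 ± 15.2 CPM (SD, n = 2) and 274 ± 34.3 (SD, n = 3), or 0.797 times the control level. The log2 fold change was -0.33 (SE 0.09, 95% interval -0.54 to -0.12) with an unadjusted p of 0.00597 and an adjusted p of 0.173 by edgeR, so it was not called. Without replicate 5, its IGF-1 library nearest the controls, Sox4 fell by 0.43 on the log2 scale (SE 0.04, adjusted p = 4.94e-14 by edgeR). On the same libraries DESeq2 called it too (adjusted p = 3.93e-11). These fits set 2 libraries against 2, so their p-values rest on the spread within the pairs, which may be technical. With all 5 libraries and no filter on low counts edgeR called it as well (-0.32, adjusted p = 4.5e-04); DESeq2 with all 5 libraries did not (adjusted p = 0.0662). Over 11 alternatives its difference stayed below 0, from -0.43 to -0.24, and its adjusted p ran from 4.94e-14 to 0.782. In the mouse annotation of GRCm38, exons of an antisense gene overlap 54.6% of the exon bases of Sox4, so part of its reads could be shared or left uncounted. Under its symbol that antisense gene was absent from the 29495 genes, so it could not be analysed here. Each gene listed had a count in some library, so its absence could also mean 0 counts.

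Sox11, its paralog, was at 250 and 248 CPM in the controls and at 238, 229 and 230 with IGF-1. The groups did not overlap, and the 5 values lay within 0.12 on the log2 scale. Its fitted log2 difference was -0.10 (SE 0.06, 95% interval -0.23 to 0.03, adjusted p = 0.523 by edgeR), and -0.09 without replicate 5 (adjusted p = 0.163). The difference between Sox4 and Sox11 in their response was not tested.

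Sox2, the stem cell factor gene, was at 190 and 182 CPM in the controls and at 181, 184 and 170 with IGF-1. The groups overlapped, and replicate 5 was the lowest. The log2 fold change was -0.06 (SE 0.06, 95% interval -0.20 to 0.08, adjusted p = 0.73 by edgeR), or -0.03 without replicate 5. Sox2ot, the noncoding gene that surrounds Sox2, was at 13.9 to 17.8 CPM with a log2 fold change of -0.16 (adjusted p = 0.625 by edgeR).

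**Figure D3:**
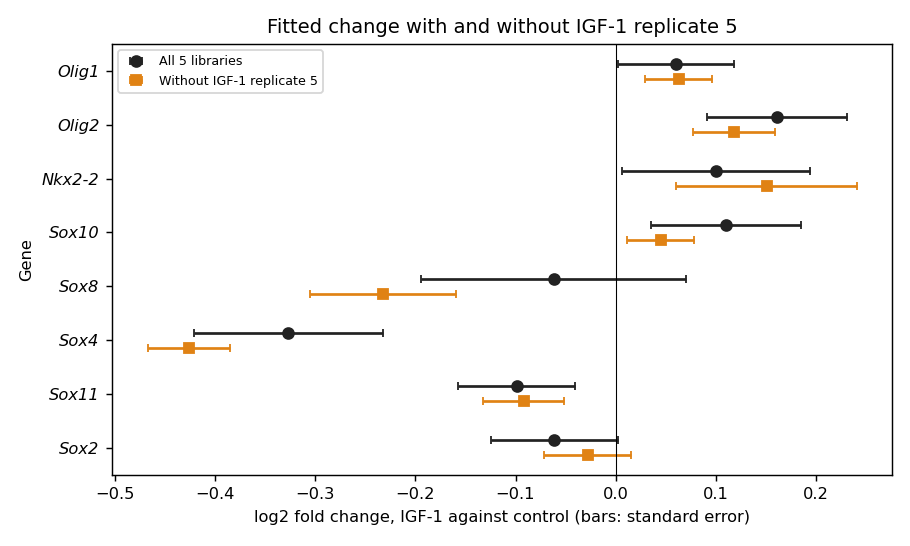
Fitted log2 fold change of IGF-1 against control with its standard error for 8 genes, with all 5 libraries (circles) and without IGF-1 replicate 5 (squares). Sox4 moves from -0.33 to -0.43 and Sox8 from -0.06 to -0.23, while Olig1 stays at 0.06.

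Proximal promoter sequence is shown for Sox4, which had the largest difference of the well-measured genes, for its paralog Sox11, which differed little, and for the lineage factor gene Olig2. Each line gives the 250 bases before the RefSeq start on the gene's own strand, 5′ to 3′, in build GRCm38.p6. The windows are chr13:28953700-28953949 (minus strand) for Sox4, chr12:27342719-27342968 (minus strand) for Sox11 and chr16:91225300-91225549 (plus strand) for Olig2. Capitals mark matches, on either strand, to the E-box CANNTG, the CCAAT box (CCAAT), the GC box GGGCGG, the SOX motif AACAAT and the TATA box TATAAA; no matches overlapped. A FOXO motif (GTAAACA) and an EGR1 motif (GCGTGGGCG) were searched too.
Sox4: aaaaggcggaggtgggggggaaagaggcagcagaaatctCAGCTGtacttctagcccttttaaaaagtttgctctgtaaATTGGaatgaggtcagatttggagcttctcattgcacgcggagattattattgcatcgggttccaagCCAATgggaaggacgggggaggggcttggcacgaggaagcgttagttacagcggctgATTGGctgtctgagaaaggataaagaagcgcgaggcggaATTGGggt
Sox11: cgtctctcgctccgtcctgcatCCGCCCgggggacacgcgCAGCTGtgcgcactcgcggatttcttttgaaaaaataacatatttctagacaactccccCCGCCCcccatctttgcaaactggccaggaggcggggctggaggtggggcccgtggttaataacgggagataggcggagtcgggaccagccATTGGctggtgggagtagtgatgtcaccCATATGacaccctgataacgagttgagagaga
Olig2: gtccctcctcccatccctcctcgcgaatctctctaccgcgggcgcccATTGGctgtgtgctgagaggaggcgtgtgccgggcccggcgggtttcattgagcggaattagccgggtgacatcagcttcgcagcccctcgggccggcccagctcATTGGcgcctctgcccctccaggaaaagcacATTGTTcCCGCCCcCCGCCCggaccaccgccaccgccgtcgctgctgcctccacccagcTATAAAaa

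The Sox4 window held 4 CCAAT matches and 1 E-box, and no GC box. The Sox11 window held 1 CCAAT match, 2 E-boxes and 2 GC boxes. The Olig2 window held 2 CCAAT matches, 2 GC boxes and 1 SOX motif 62 to 67 bases before the start. It also held the letters TATAAA 3 to 8 bases before the start, a match by letters alone. G and C made up 50.8% of the Sox4 window, 58% of the Sox11 window and 66.8% of the Olig2 window, and the median of 32851 RefSeq promoter windows of this length was 52.4%. Of those windows 33.9% held a CCAAT match, 66.2% an E-box, 32.7% a GC box, 9.42% a SOX motif and 12.4% a TATA box. The FOXO letters (3.17% of windows) and the EGR1 letters (0.536%) were not in these 3 windows. Of the 9 genes 6 had a promoter in that table. The 50 bases after the RefSeq start were found in a GENCODE transcript of the gene for Sox4 and Olig2 and not for Sox11.

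Across the SOX family, 12 other genes were read, of which 6 passed the filter. Sox6, a group D gene that restrains differentiation of progenitors, was the most abundant of these per length, at 41.1 to 42.4 RPKM by all exons and at 74.2 to 76.5 by its much shorter principal transcript, which places it below or above the mean of Sox4 (62.9). Of the 6 it differed least (log2 0.00, SE 0.06, adjusted p = 0.995 by edgeR). Sox12, the remaining group C gene, was at 98.7 and 95.4 CPM in the controls and at 101, 114 and 114 with IGF-1 (log2 0.18, adjusted p = 0.352), opposite in sign to Sox4. EdgeR, DESeq2 and limma-voom called 0 of the 6 in either direction, and without adjustment 1 was higher and 1 lower. The lower gene was Sox21, a group B gene, named here after its values were seen, at 18.4 and 19.8 CPM in the controls and between 13.7 and 15.2 in the 3 IGF-1 libraries (log2 -0.42, adjusted p = 0.125). Without replicate 5 it was called (-0.47, adjusted p = 0.00194). Of the summed RPKM of 18 SOX genes, Sox10 made up 48.4% and 47.7% in controls, and under IGF-1 51.6%, 50.4% and 53.0%. Sox4 made up 13.1% and 12.9% in controls, and under IGF-1 9.50%, 10.4% and 11.1%. The share of Sox10 was higher and that of Sox4 lower in all 3 IGF-1 libraries. By principal transcript length this held too: Sox10 made up 47.1% to 47.9% in controls and 49.7% to 52.3% under IGF-1. Sox4 made up 11.6% to 11.8% and 8.51% to 9.94%. A share also moves with the other genes of the sum. The level of Sox10 itself overlapped between the groups, at 273 and 256 RPKM in controls and at 274, 271 and 310 under IGF-1. These shares are therefore only a description of these libraries.

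**Figure D4:**
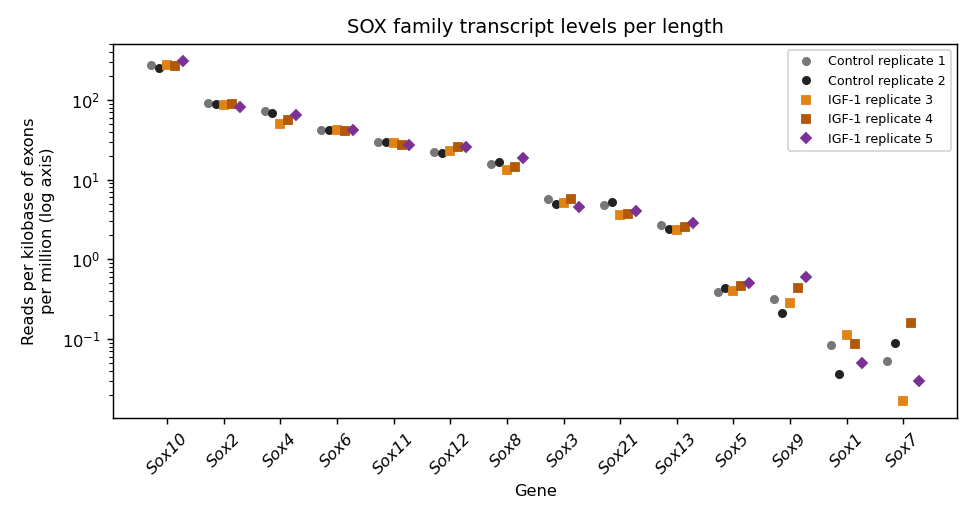
RPKM (log axis) of the 14 SOX genes with a count in every library; circles are controls, squares IGF-1 replicates 3 and 4, diamonds IGF-1 replicate 5. Sox10 leads at 256 to 310 and Sox9 lies between 0.214 and 0.604.

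Regulators of the lineage, factors that work with SOX2 and SOX9, and reported targets were counted as lists, to be read against the shares over all genes tested: 0.685% called higher and 0.339% lower, and 7.1% and 5.57% without adjustment. Of 22 tested regulators of the oligodendrocyte lineage 1 was called higher and 0 lower by edgeR (3 and 3 unadjusted), with a median of 0.03. The called gene was Hes1, a repressor downstream of Notch, which rose by 0.72 on the log2 scale, its control mean being 11.1 ± 1.43 CPM (SD, n = 2) and its IGF-1 mean 18.3 ± 1.95 (SD, n = 3). Its SE was 0.14 and its adjusted p 0.0442 by edgeR. DESeq2 called 1 higher and limma-voom 0. Of 17 tested SOX2 and SOX9 partner factors 1 was higher and 0 lower by edgeR, DESeq2 and limma-voom (2 and 2 unadjusted), with a median of 0.02. This gene was Pou3f1, a POU factor gene of the glial lineage, at 101 and 105 CPM in controls and at 143, 165 and 139 under IGF-1 (log2 0.53, SE 0.08, adjusted p = 0.0186 by edgeR). All 3 IGF-1 libraries lay above both controls for Hes1 and Pou3f1. Without IGF-1 replicate 5 edgeR called both, Hes1 at 0.67 (adjusted p = 2.77e-05) and Pou3f1 at 0.58 (adjusted p = 1.24e-15). Without control replicate 1, and likewise without control replicate 2, edgeR called 0 genes of the whole table higher, so neither call held there.

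Of 13 tested genes reported as SOX10 or OLIG2 targets edgeR, DESeq2 and limma-voom called 0 (1 higher and 0 lower unadjusted), and the median was 0.00. The most abundant were Ptprz1, a receptor phosphatase gene (log2 0.02, adjusted p = 0.92), and Erbb3, a neuregulin receptor gene. Erbb3 was at 836 and 787 CPM in the controls and at 807, 839 and 940 with IGF-1, highest in replicate 5 like Sox10 (log2 0.09, adjusted p = 0.677). Of 10 tested genes reported as SOX4 or SOX11 targets edgeR and limma-voom called 0 (2 higher and 0 lower unadjusted), DESeq2 called 1 higher, and the median was 0.05. The most abundant was Nes, the intermediate filament gene of neural progenitors, at 485 and 467 CPM in the controls and at 562, 573 and 564 with IGF-1. Its groups did not overlap, but it was not called (log2 0.25, SE 0.06, adjusted p = 0.093 by edgeR). Without replicate 5 it was called, with the same difference of 0.25 (adjusted p = 3.48e-08). Fscn1, an actin-bundling protein gene, came next (log2 0.07, adjusted p = 0.673). Without replicate 5, edgeR called 2 higher and 3 lower of the regulators, 2 and 2 of the partners, 1 and 2 of the SOX10 or OLIG2 targets, and 2 and 1 of the SOX4 or SOX11 targets, where 5.49% of all genes were called higher and 3.65% lower.

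**Figure D5:**
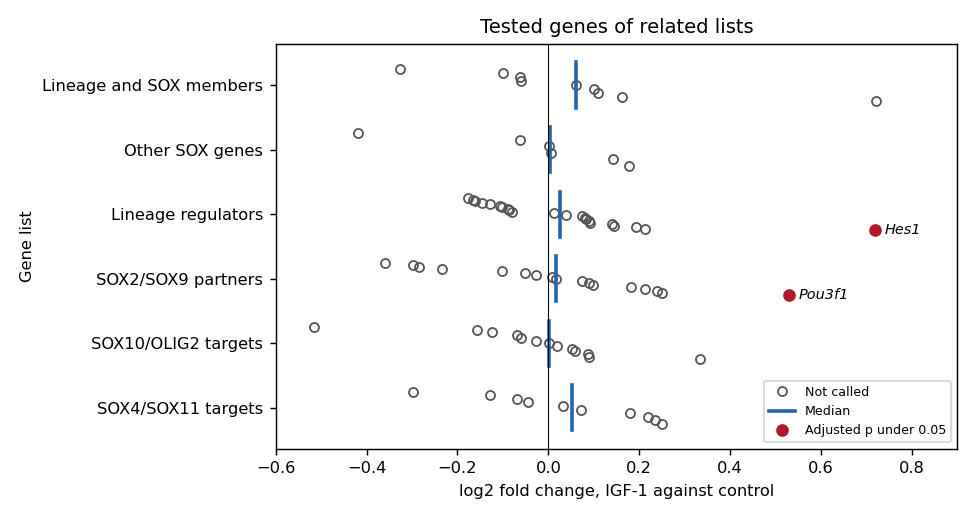
log2 fold change of IGF-1 against control for each tested gene of 6 lists, 1 point per gene; filled points have an adjusted p under 0.05 by edgeR and blue lines are list medians. Of all points, Hes1 (0.72) and Pou3f1 (0.53) are called, and the medians lie between 0.00 and 0.06.

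The genes closest in pattern to Sox4 and Sox8, the members of at least 10 CPM with the widest range over libraries (0.55 and 0.52 on the log2 scale), were sought among 9779 genes by the root mean square difference of centred log2-CPM over the 5 libraries. For Sox4 these were Cyp26b1, a retinoic acid hydroxylase gene (0.006), and the zinc finger genes Zfp790 (0.02) and Zfp46 (0.03). Cyp26b1 was at 55.9 and 52.3 CPM in the controls and at 37.9, 42.1 and 49.1 with IGF-1, and it was likewise not called (log2 -0.33, adjusted p = 0.224 by edgeR). For Sox8 they were Rasl10b (0.04), the Polycomb gene Cbx8 (0.04) and the receptor gene Lrp4 (0.04). All 6 had IGF-1 replicate 5 above replicates 3 and 4, which follows from their choice, as Sox4 and Sox8 have the same order. With 5 libraries such closeness is a description.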

How the data were processed

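The authors deposited 1 table of unnormalized counts for each library, by gene symbol. Build GRCm39, STAR 2.7.9a, featureCounts 2.0.1, cutadapt 3.4 and DESeq2 1.28.1 are named in the submitters' processing notes; their settings, the annotation and the use of strand are not stated there. Groups came from the titles, whose numbers 1 to 5 are not shared between groups. The analysis used edgeR 4.0.16 under R 4.3.3: filterByExpr (minimum count 10, minimum total 15) left 15919 genes, TMM factors scaled the libraries, and the quasi-likelihood F-test compared 3 IGF-1 libraries with 2 controls. P-values were adjusted by Benjamini-Hochberg over all genes tested. The SE is the size of the log2 fold change divided by the square root of F. DESeq2 1.42.0, limma 3.58.1 (voom), other scalings, no filter and each library left out were alternatives; DESeq2 without IGF-1 replicate 5 and principal transcript lengths were added after seeing the data. Exon lengths and overlaps came from GENCODE M21 and promoters from RefSeq, both on GRCm38 and matched by symbol. The procedure was tested on simulated data. Genes other than the 9 were named by rule: the called members of each list, or its 2 most abundant where none was called, and the 3 nearest in pattern to the 2 most variable members. Sox21 and the cell type markers named fall outside that rule and were chosen after their values were seen. The members and lists were chosen with earlier results of these data known.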

Additional observations from a re-analysis of the deposited data

How the results depend on the processing

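Over all genes edgeR called 109 higher and 54 lower; without the filter 385 and 221, and by DESeq2 180 higher. Leaving out 1 library gave 0 to 855 higher and 2 to 569 lower. The 9 genes gave 0 calls higher under every alternative run. They gave 0 lower, except for 1 (Sox4) without the filter and 0 to 2 with 1 library left out, where Sox4 and Sox8 were called by edgeR without IGF-1 replicate 5. DESeq2 without that library called 1, Sox4. The log2 fold change of Sox8 ran from -0.23 to 0.043 with 1 library left out, reversed without IGF-1 replicate 3 and lowest without replicate 5. The cause was not tested. The other 8 genes kept their sign under all 11 alternatives. Fits that leave 1 control take its spread from the IGF-1 libraries. Per length rather than by CPM, Olig1 ranked 1, Sox10 2, Olig2 3, Sox2 4, Sox4 5 and Sox11 6, also by principal transcript length, where Olig1 and Sox10 overlapped. No paired analysis was possible because the groups share no replicate numbers. Sox9 rests on few counts, at 15 to 51 per library.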
